A study of Mus musculus with 6 samples.

Results

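Vascular calcification regulators are genes whose products hold back or promote the deposition of calcium phosphate in the vessel wall. The 10 regulators described here were listed by name, for their known roles, among 55335 genes counted in mouse aorta. The list applies no threshold to the measured values, but it was drawn up with earlier results of these data known. The 5 inhibitors are Mgp, Spp1, Enpp1, Tnfrsf11b and Gas6, and the 5 promoters are Alpl, Runx2, Sox9, Bmp2 and Bmp4. All 10 had enough counts to be tested. The labels give 3 libraries of wild-type C57BL/6 mice of 6 weeks (young) and 3 of 6 months (aged), with no treatment in either group. They imply a separate animal for each library without stating it. The groups therefore differ in age alone by their labels, and the aged animals are 6 months old. The study gives all mice as male. Each library is whole aorta, freed of the fat around it under a microscope, so that fewer cells of a type and less RNA per cell cannot be told apart.

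Calcium and phosphate in plasma are close to the point at which they precipitate, and the vessel wall is kept free of mineral by local and circulating inhibitors. Matrix Gla protein (Mgp), made by smooth muscle cells, binds mineral and bone morphogenetic proteins once vitamin K has modified it. Pyrophosphate, a product of Enpp1, blocks crystal growth, and the phosphatase Alpl destroys it. In calcifying arteries smooth muscle cells can take up a bone- or cartilage-like program, in which Runx2 and Sox9 are the leading transcription factors and Bmp2 and Bmp4 are ligands that induce it.

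The libraries held 31049632 to 45832185 counts, and levels are given as CPM, the counts per 1000000 counts of a library size scaled by the trimmed mean of M values. The smooth muscle markers, led by Acta2, summed to 32232 to 40140 CPM in the young and 27960 to 33326 CPM in the aged libraries, the highest sum among the marker lists. Some of the 6 libraries stood apart in a marker. Young replicate 1 held Xist, expressed from the inactive X chromosome of females, at 305.6 CPM against at most 0.636 CPM in the other libraries, which goes against the stated sex. The same library held the cardiac markers, led by Tnnt2, at 266 CPM against at most 54.4 CPM elsewhere. Aged replicate 2 held the brown fat marker Ucp1 at 1422 CPM and lay with the young libraries on the first principal component. Ucp1 was next highest in young replicate 2, at 361 CPM. The mesothelial markers, led by Upk3b, summed to 56.0 CPM in young replicate 2 and 58.7 CPM in aged replicate 3, against at most 10.7 CPM elsewhere. Aged replicate 3 held the endothelial markers, led by Pecam1, at 1587 CPM against at most 471 CPM in the other libraries. The share of mitochondrial counts was 14.9% to 21.2% in the young and 23.1% to 30.4% in the aged libraries. For each regulator the lowest and highest fold change from fits that leave out 1 library are given beside the result.

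None of the 10 regulators passed the test between aged and young aorta. With edgeR's quasi-likelihood test and Benjamini-Hochberg adjustment over 16612 genes, 0 of the 10 were called at an adjusted p of 0.05, and so were 0% of all genes tested. The lowest adjusted p was 0.391 among the regulators and 0.189 among all genes. At an unadjusted p under 0.05 stood 1 regulator, Runx2, beside 10.4% of all tested genes. DESeq2 called 0 of the 10 regulators and 2.08% of the genes for which it gave an adjusted p. The fold change was above 0 for 8 regulators and below 0 for Enpp1 and Bmp2, with a median of 0.23 on the log2 scale beside 0.020 over all genes. Among the inhibitors 4 of 5 lay above 0 (median log2 fold change 0.17), and among the promoters 4 of 5 did so as well (median 0.29). In CPM only Runx2 had groups that did not overlap, with the aged libraries higher, beside 7.74% of all genes in that direction. In FPKM its groups overlapped. No regulator had all aged libraries below all young ones, beside 8.78% of all genes. On FPKM values (fragments scaled to gene length and library size before deposit) the median of all genes moved to -0.12, and there the estimates for Alpl, Tnfrsf11b and Gas6 turned below 0.

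**Figure D1:**
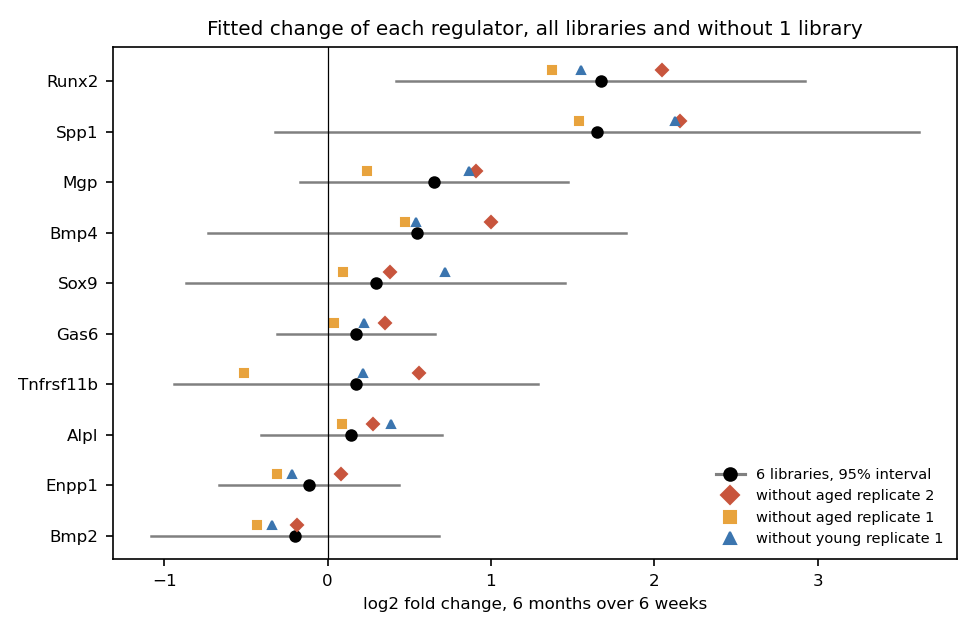
Log2 fold change of aged over young aorta for the 10 regulators (x axis) by gene (y axis), with circles for the edgeR estimate, lines for its 95% interval, and smaller marks for fits without aged replicate 2 (diamonds), aged replicate 1 (squares) or young replicate 1 (triangles). The interval of Runx2, 0.42 to 2.92, is the only one that leaves out 0, and no gene passed the adjusted threshold.

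The regulators spanned a wide range of levels, compared between genes per length as FPKM. Mgp was the highest in every library at 1041 to 2609 FPKM and ranked 29 among all genes by its mean FPKM. Gas6 came next in every library, with Mgp 7.97 times higher on the mean. Bmp4 followed, 13.5 times below Gas6. The ranges of Mgp and Gas6 did not overlap, nor did those of Gas6 and Bmp4. The range of Bmp4 overlapped that of Tnfrsf11b, although Bmp4 was the higher of the pair in 6 of 6 libraries. Tnfrsf11b, Alpl, Enpp1, Spp1 and Bmp2 then lay close together. Each neighboring pair in that order had a ratio of means of at most 1.58 and overlapping ranges, and Spp1 was above Bmp2 in just 3 of 6 libraries. Sox9 came ninth on the mean, and Runx2 was the lowest in every library at 0.0688 to 0.339 FPKM.

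**Figure D2:**
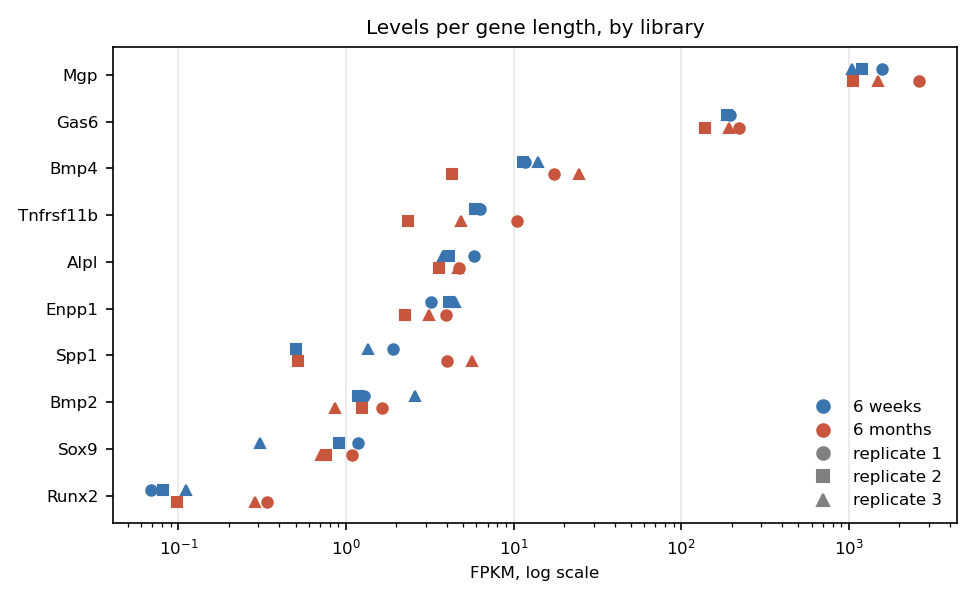
FPKM of each regulator (log axis) in the 6 libraries, genes ordered by their mean level. Mgp, Gas6 and Bmp4 take the first 3 ranks and Runx2 the last in every library, and the aged replicates of Spp1 spread more widely than its neighbors in the order.

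Mgp and Gas6 are the regulators made with Gla residues, glutamate carboxylated with the help of vitamin K. Mgp (ENSMUSG00000030218, chromosome 6, 136872435 to 136875823 of GRCm38, minus strand) had 1958, 1440.1 and 1233 CPM in young replicates 1 to 3. In aged replicates 1 to 3 it had 3618, 1473 and 2179.7 CPM. In CPM aged replicates 1 and 3 lay above every young library, and aged replicate 2 lay among them. In FPKM aged replicate 3 (1487) lay below young replicate 1 (1574). The means were 1543 ± 373 CPM and 2424 ± 1093 CPM (SD, n = 3 each), which gave 0.65 on the log2 scale (SE 0.35). The 95% interval ran from -0.17 to 1.47, and the edgeR adjusted p was 0.552. Mgp made up 0.136% to 0.207% of all counts in the young libraries and 0.138% to 0.341% in the aged ones. Leaving out 1 library at a time, its log2 fold change ran from 0.24 without aged replicate 1 (edgeR adjusted p = 0.836) to 0.91 without aged replicate 2 (adjusted p = 0.281). Without young replicate 1 it was 0.86 (edgeR adjusted p = 0.453).

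Gas6, the ligand of the Tyro3, Axl and Mertk receptors that carries survival signals to smooth muscle cells, lies on chromosome 8 (13465374 to 13494490, minus strand). Its young libraries had 525, 489.7 and 475 CPM, and its aged libraries 660.4, 414 and 606 CPM. In CPM aged replicates 1 and 3 lay above every young library, and aged replicate 2 lay below them. In FPKM aged replicate 3 (192.6) lay below young replicate 1 (196.7). Its log2 fold change of 0.17 had an SE of 0.21, and the 95% interval ran from -0.31 to 0.66 (edgeR adjusted p = 0.782). The estimate ran from 0.038 without aged replicate 1 to 0.35 without aged replicate 2, and was 0.22 without young replicate 1. Tmem255b, which overlaps Gas6 on the opposite strand, had at most 184 counts beside at least 15613 counts of Gas6. The ratio of Mgp to Gas6 in FPKM was 8.0, 6.32 and 5.57 in the young libraries and 11.8, 7.65 and 7.72 in the aged ones, and the groups overlapped.

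Spp1 and Tnfrsf11b encode secreted proteins best known from bone. Spp1 (osteopontin, chromosome 5, 104435118 to 104441050, plus strand) binds mineral and integrins and is made by macrophages as well as by vessel and bone cells. It had 3.32, 0.862 and 2.24 CPM in the young libraries, from 161, 30 and 77 counts. In the aged libraries it had 7.73, 1.01 and 11.5 CPM, from 257, 38 and 326 counts. Aged replicates 1 and 3 were above every young library, while aged replicate 2 was below young replicates 1 and 3. The log2 fold change of 1.65 was close to that of Runx2, but its SE was 0.84 and the interval ran from -0.32 to 3.62 (edgeR adjusted p = 0.541). Its highest aged library was 11.5 times its lowest, and the within-group SD of its log2 CPM ranked at percentile 97.3 of all tested genes. Over the fits without 1 library the estimate was lowest without aged replicate 3, at 1.02 (edgeR adjusted p = 0.772), and highest without aged replicate 2, at 2.16 (adjusted p = 0.169). It was 1.28 without young replicate 2 and 2.12 without young replicate 1.

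Tnfrsf11b (osteoprotegerin, chromosome 15, 54250619 to 54278484, minus strand) is the decoy receptor that keeps the ligand Tnfsf11 (RANKL) from its receptor. The young libraries lay within a narrow range of 17.0 to 18.7 CPM. The aged libraries held 34.9, 7.77 and 17.0 CPM, with aged replicate 1 above all young libraries, aged replicate 2 far below them and aged replicate 3 just under the lowest of them. With an SE of 0.47, the estimate was 0.17 on the log2 scale (95% interval -0.94 to 1.29, edgeR adjusted p = 0.914). It was -0.51 without aged replicate 1, 0.56 without aged replicate 2 and 0.22 without young replicate 1. The mean in young aorta was 17.6 ± 0.906 CPM and that in aged aorta 19.9 ± 13.8 CPM (SD, n = 3 each).

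**Figure D3:**
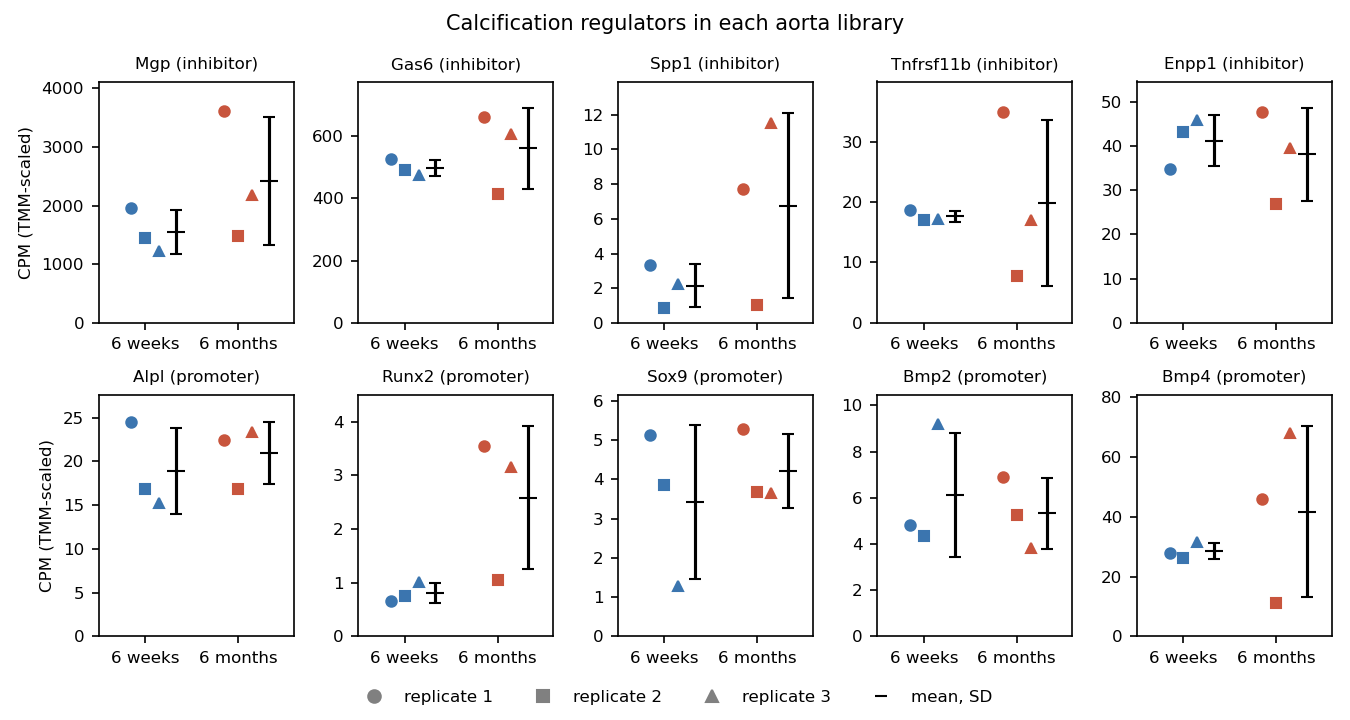
CPM of each of the 10 regulators (y axis, a scale of its own per panel) in the 3 young and 3 aged libraries, with bars for the mean and SD of each group. Runx2 alone has its aged points all above its young points, and Mgp, Gas6, Spp1, Tnfrsf11b, Enpp1, Runx2 and Bmp4 have an SD in aged aorta above that in young aorta.

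Enpp1 and Alpl set the pyrophosphate around a cell, the former as its source and the latter as the enzyme that splits it. Enpp1 (chromosome 10, 24637914 to 24712159, minus strand) had 34.8, 43.1 and 45.8 CPM in the young and 47.7, 27.0 and 39.6 CPM in the aged libraries. The aged libraries held both the highest and the lowest value. For Enpp1 the log2 fold change was -0.11 with an SE of 0.23 (95% interval -0.66 to 0.44, edgeR adjusted p = 0.882). The estimate was 0.085 without aged replicate 2, -0.31 without aged replicate 1 and -0.22 without young replicate 1. Alpl (chromosome 4, 137741733 to 137796384, minus strand) had 24.6, 16.9 and 15.3 CPM in the young and 22.5, 16.9 and 23.4 CPM in the aged libraries. Its highest value was that of young replicate 1, on which the overlap of the groups rests, since the other young libraries lay below all aged ones, by a narrow margin for aged replicate 2. For Alpl it was 0.15 with an SE of 0.24 (95% interval -0.41 to 0.70, edgeR adjusted p = 0.844). It was 0.39 without young replicate 1 (edgeR adjusted p = 0.523), 0.28 without aged replicate 2 and 0.023 without young replicate 3.

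The balance of the pair was read as the ratio of Alpl to Enpp1 within each library in FPKM. It was 1.80, 0.996 and 0.850 in the young libraries and 1.2, 1.59 and 1.5 in the aged ones. The aged ratios all lay above 1 and inside the young range, whose upper end is young replicate 1 alone. The other young ratios lay below all aged ones. The mean log2 ratio was 0.20 ± 0.57 in young and 0.51 ± 0.22 in aged aorta (SD, n = 3 each), a difference of 0.30. That is smaller than the SD of the young libraries, which rests on young replicate 1. Without that library the difference was 0.63, and without young replicate 3 it was 0.086. No test was run on the ratio.

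Runx2 is the transcription factor without which no osteoblasts form, and its gene (ENSMUSG00000039153, chromosome 17, 44495987 to 44814797, minus strand) is the largest of the 10. It had 0.661, 0.747 and 1.02 CPM in the young libraries, from 32, 26 and 35 counts. The aged libraries had 3.55, 1.06 and 3.15 CPM, from 118, 40 and 89 counts. In CPM all aged libraries lay above all young ones, but aged replicate 2 cleared young replicate 3 by a narrow margin. In FPKM the groups overlapped, with aged replicate 2 at 0.0982 and young replicate 3 at 0.112. The scaling factors behind the CPM were 1.06 to 1.11 in the young and 0.886 to 0.943 in the aged libraries. The means were 0.809 ± 0.187 and 2.59 ± 1.34 CPM (SD, n = 3 each), which gave 1.67 on the log2 scale (SE 0.53). In linear terms the fold was 3.19, with a 95% interval of 1.34 to 7.59. The unadjusted p was 0.0156 and the adjusted p 0.391 by edgeR, and Runx2 ranked 665 among all tested genes by its p. A two-sided exact permutation test over the 6 libraries gave p = 0.1, the smallest that 3 against 3 allows. The size of the change ranked at percentile 97.1 of all tested genes.

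The fold change of Runx2 lay above 0 in all settings that were run. Without aged replicate 2 it was 2.05 with an edgeR adjusted p of 0.113, and without young replicate 1 it was 1.55 with an adjusted p of 0.440. The lowest of these fits, without aged replicate 1, gave 1.37. Without aged replicate 1 the unadjusted p was 0.0604, and without aged replicate 3 it was 0.050. On log2(FPKM + 1) limma gave a log2 fold change of 0.19, since the pseudocount exceeds every FPKM value of this gene. The strand of the counting was not stated, and Supt3 runs opposite to Runx2 over 37646 bases of the gene, so that reads of the pair may not be separated there. Supt3 had 332, 192 and 135 counts in the young and 208, 209 and 183 counts in the aged libraries, which overlapped.

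Sox9, which directs cartilage formation, lies on chromosome 11 (112782224 to 112787760, plus strand). It had 5.14, 3.85 and 1.28 CPM in the young and 5.30, 3.68 and 3.65 CPM in the aged libraries. Young replicate 3 was the lowest of all, and the other 5 libraries lay close to one another. The log2 fold change was 0.29 with an SE of 0.49 (95% interval -0.87 to 1.45, edgeR adjusted p = 0.848), and -0.089 without young replicate 3. It was 0.72 without young replicate 1 and 0.38 without aged replicate 2. The ratio of Runx2 to Sox9 in FPKM was below 1 in every library, at 0.0585 to 0.365 in the young and 0.129 to 0.404 in the aged ones.

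Promoter sequence was available from RefSeq (build GRCm38.p6) for 6 of the 10 regulators, in 8 windows of the 250 bases before a start site. They were searched on both strands for ACCACA, the core that RUNX proteins bind (TGTGGT on the opposite strand). A match stood in 3 of the 8 windows, for Spp1, Enpp1 and Runx2, beside 14% of 32851 mouse promoter windows of the same length. The lines below give 30 bases around each match, 5′ to 3′ on the strand of the gene with the match in capitals, because these are the regulators whose windows hold the letters bound by one of their own number.
Spp1 (chr5:104434971-104435000, plus strand): tttttttttttaACCACAaaaccagaggag
Enpp1 (chr10:24712286-24712315, minus strand): cactctttgcagACCACAcagcgattccag
Runx2 (chr17:44814690-44814719, minus strand): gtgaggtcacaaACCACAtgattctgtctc
The matches began 128, 144 and 80 bases before the start site of Spp1, Enpp1 and Runx2. Around the shared letters the contexts differ, with a run of T before the match of Spp1. The windows of Spp1 and Runx2 had 43.6% and 44.8% G and C, below the median of 52.4% over all windows, and that of Enpp1 had 61.2%. The Runx2 window held no CpG and that of Enpp1 held 17, beside a median of 6. The matches describe letters in these windows and carry no measurement of binding. The whole window of Spp1, the regulator with the widest spread among the aged libraries (chr5:104434861-104435110, plus strand), with the same match in capitals, reads as follows.
Spp1 promoter: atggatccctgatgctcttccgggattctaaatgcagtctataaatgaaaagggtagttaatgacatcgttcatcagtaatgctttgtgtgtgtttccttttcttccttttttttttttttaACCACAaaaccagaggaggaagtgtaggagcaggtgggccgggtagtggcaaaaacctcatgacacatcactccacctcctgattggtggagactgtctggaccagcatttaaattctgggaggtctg

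Bmp2 and Bmp4 are closely related bone morphogenetic proteins that signal through the same receptors. Bmp2 (chromosome 2, 133552159 to 133562885, plus strand) had 4.81, 4.34 and 9.21 CPM in the young and 6.89, 5.25 and 3.82 CPM in the aged libraries. Young replicate 3 was the highest and aged replicate 3 the lowest. The log2 fold change was -0.20 with an SE of 0.38 (95% interval -1.08 to 0.68, edgeR adjusted p = 0.866), and 0.22 without young replicate 3. Without aged replicate 1 it was -0.43, without young replicate 1 -0.34 and without aged replicate 2 -0.19. Bmp4 (chromosome 14, 46383520 to 46390669, minus strand) lay within 26.3 to 31.5 CPM in the young libraries. Its aged libraries had 45.9, 11.3 and 68.2 CPM, with replicates 1 and 3 above and replicate 2 below every young library. The log2 fold change of Bmp4 was 0.55 with an SE of 0.55 (95% interval -0.73 to 1.83, edgeR adjusted p = 0.738). Without aged replicate 2 it was 1.00 with an adjusted p of 0.124, without aged replicate 3 it was 0.0021 and without young replicate 1 it was 0.54. The ratio of Bmp4 to Bmp2 in FPKM ranged from 5.41 to 9.64 in the young libraries, while in the aged ones it was 10.6, 3.41 and 28.4. Bmp4 thus exceeded Bmp2 in all 6 libraries. Gm15222, which runs opposite to Bmp4 and overlaps it, had at most 77 counts.

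Runx2, Spp1, Mgp, Bmp4 and Gas6 shared a library pattern, picked out after their values were seen. In CPM each was higher in aged replicates 1 and 3 than in every young library. In FPKM this held for Runx2, Spp1 and Bmp4, while Mgp and Gas6 in aged replicate 3 lay below young replicate 1. Aged replicate 2 lay in CPM within the young range for Mgp and Spp1, below it for Bmp4 and Gas6 and just above it for Runx2. The first principal component, with 32.6% of the variance, split the libraries in the same way. Aged replicates 1 and 3 lay there at 43.6 and 38.2, and the other libraries at -26.2 to -13.05. The share of all genes with this pattern was not counted, so that it is not shown to be particular to these regulators. The summed markers of fibroblasts were likewise higher in aged replicates 1 and 3, at 1858 to 2856 CPM in the young libraries and 6578, 1704 and 4830 CPM in the aged ones. Col1a1, the most abundant of them, did not share this. It had 1282 CPM in aged replicate 3, inside its young range of 907 to 1559 CPM. The summed macrophage markers, led by C1qa, were 48.7 to 63.2 CPM in the young and 214, 72.5 and 156 CPM in the aged libraries. Of the 6 macrophage markers 4 had all aged libraries above all young ones, and of the 6 fibroblast markers 2 did, beside 7.74% of all genes. At an edgeR unadjusted p under 0.05 were 6 macrophage and 4 fibroblast markers, beside 10.4% of all genes. The adjusted threshold was passed by 0 markers of either list and by 0% of all genes. The endothelial markers were 383 to 471 CPM in the young libraries and 362, 328 and 1587 CPM in the aged ones. The part of these cell types in the levels of the 5 regulators was not tested.

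**Figure D4:**
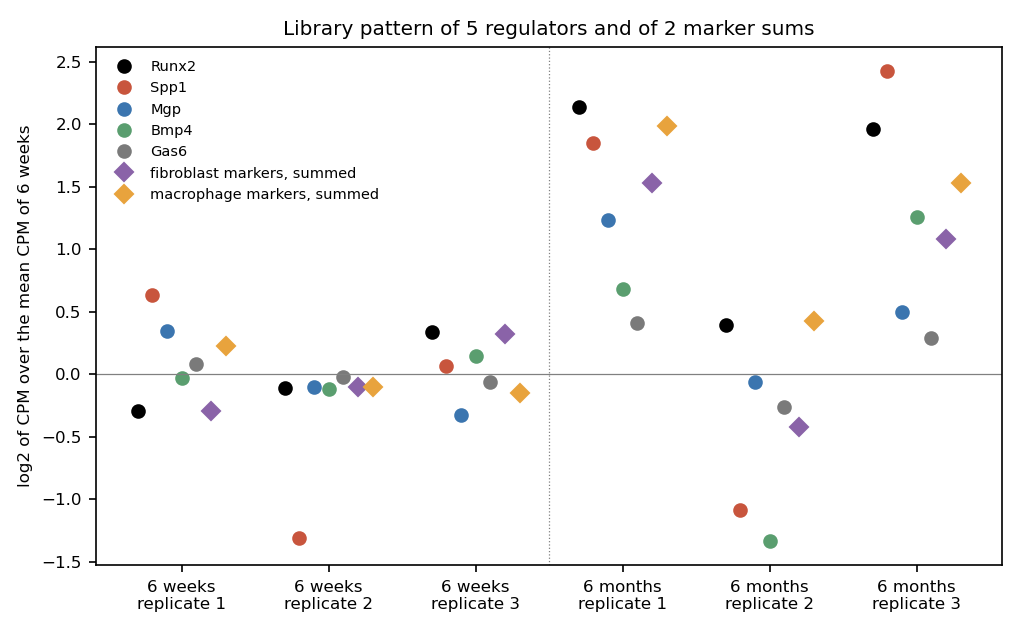
Log2 of the CPM over the mean CPM of the young libraries (y axis) for Runx2, Spp1, Mgp, Bmp4 and Gas6 (circles) and for the summed fibroblast and macrophage markers (diamonds) in each library (x axis). All 7 lie above 0 in aged replicates 1 and 3, and in aged replicate 2 only Runx2 and the macrophage sum do.

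The ratio to a marker sum gives each regulator beside those cells, a measure added after the values were seen. Runx2 per 1000 CPM of fibroblast markers was 0.355, 0.351 and 0.357 CPM in the young libraries and 0.540, 0.622 and 0.652 CPM in the aged ones. On this measure the young libraries were nearly equal and the groups did not overlap. The young values rest on just 32, 26 and 35 counts of Runx2, so that their closeness carries little weight. The measure depends on the make-up of the sum. Its most abundant gene, Col1a1, had a log2 fold change of 0.17. The other fibroblast markers ran from 1.31 (Pdgfra) to 1.65 (Dpt), beside 1.67 for Runx2. Whether Runx2 rose beyond the share of fibroblasts was not tested. Per 1000 CPM of macrophage markers Runx2 was 10.5 to 21 CPM in the young and 14.6 to 20.2 CPM in the aged libraries, which overlapped. Spp1 overlapped between the groups on both measures, at 0.405 to 1.79 and 0.591 to 2.39 CPM per 1000 CPM of fibroblast markers. Per 1000 CPM of macrophage markers it was 17.1 to 52.6 CPM in young and 13.9 to 73.9 CPM in aged aorta. Mgp, Bmp4 and Gas6 differed between the measures, with overlap beside the fibroblast markers and lower values in all aged libraries beside the macrophage markers. The macrophage sum was itself higher in every aged library (at least 72.5 CPM) than in any young one (at most 63.2 CPM). A gene that rose less than this sum comes out lower on the measure by construction. The share of all genes that do so was not counted. Per 1000 CPM of fibroblast markers Mgp was 432 to 1054 CPM in young and 451 to 865 CPM in aged aorta, Bmp4 11.0 to 15 and 6.63 to 14.1 CPM, and Gas6 166 to 283 and 100.4 to 243 CPM. Per 1000 CPM of macrophage markers Mgp was 25330 to 30974 CPM in young and 13957 to 20319.7 CPM in aged aorta, Bmp4 441 to 647 and 156 to 437 CPM, and Gas6 8314 to 9765 and 3093 to 5707 CPM. The ratio was also taken to the smooth muscle markers. Of these 6 markers 3 had an edgeR unadjusted p under 0.05, all lower in aged aorta, beside 10.4% of all genes. Groups apart with aged lower were found for 2 of the 6, beside 8.78% of all genes, and 0 passed the adjusted threshold. Per 1000 CPM of the smooth muscle markers Runx2 was 0.0205 to 0.0254 CPM in the young and 0.0364 to 0.113 CPM in the aged libraries, without overlap. Spp1, Mgp, Bmp4 and Gas6 overlapped between the groups there.

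Of the osteoblast markers, Dmp1, Bglap and Bglap2 were at or near 0. Dmp1 had 0 counts in all 6 libraries, and a count of 0 allows up to 0.0619 to 0.106 CPM (3 counts of each library, for counting error only). Bglap, the gene of osteocalcin, had at most 4 counts in a library and Bglap2 at most 3. Sp7, the factor that acts after Runx2 in osteoblast formation, had 1.80, 0.460 and 0.816 CPM in the young and 0.211, 0.345 and 0.460 CPM in the aged libraries. Its values thus ran the other way from those of Runx2, with overlapping groups and an edgeR adjusted p of 0.474. Ibsp, on the same marker list, ran the same way as Runx2. It had 0.115 to 0.578 CPM in the young and 1.06 to 1.62 CPM in the aged libraries (edgeR adjusted p = 0.402). The whole osteoblast list, led by Col1a1, summed to 909 to 1560 CPM in the young and 776 to 1980 CPM in the aged libraries. The cartilage markers, led by Acan, summed to 33.3 to 44.7 CPM in the young and 27.7 to 33.9 CPM in the aged libraries, with Matn1 at 0 counts throughout. The osteoclast markers, led by Ctsk, summed to 24.9 to 33 CPM in the young libraries and 105, 35.2 and 53.0 CPM in the aged ones, with the receptor Calcr at no more than 0.06 CPM.

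The other genes of the pathways around the regulators were taken from 12 lists. Of 127 genes listed 126 had a row, and 104 passed the filter on low counts, among them the 10 regulators. Of the 94 others 0 were called by edgeR and 5 by DESeq2 (Entpd2, Fetub, Id4, Nbl1 and Zfp521), 46 lay above 0 and 48 below, and their median log2 fold change was -0.038. At an unadjusted p under 0.05 were 20 of the 94, 10 higher and 10 lower, a larger share than the 10.4% of all tested genes. Groups apart in CPM were found for 10 of the 94 with aged higher and 10 with aged lower, beside 7.74% and 8.78% of all genes. The genes named from each list include those with the smallest p, a choice that favors groups apart. The lists were chosen with earlier results of these data known, so that these shares are no independent result. The adjusted p-values given for them are edgeR's over all tested genes.

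**Figure D5:**
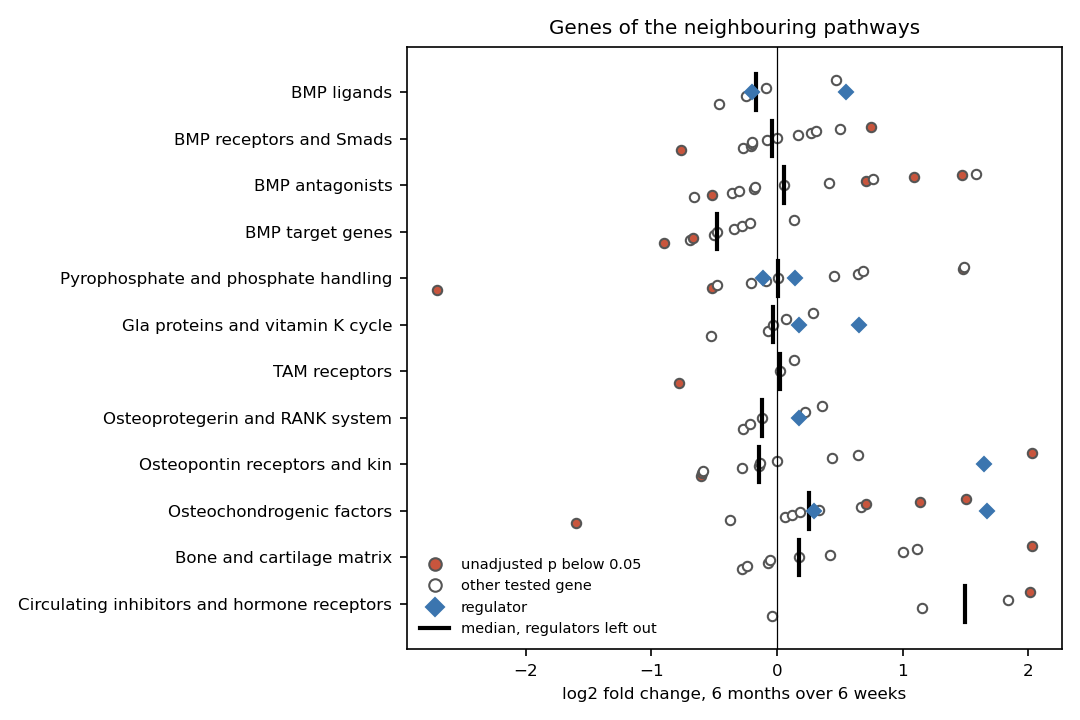
Log2 fold change of aged over young aorta (x axis) for every tested gene of the 12 pathway lists (y axis), 1 circle a gene, filled where the unadjusted p was under 0.05, with diamonds for the regulators and a black line for the median of the others on each list. The 9 other BMP target genes have a median of -0.48 and the 10 other osteochondrogenic factors one of 0.26, and no gene passed the adjusted threshold.

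Among the partners of Runx2, 8 of 10 other osteochondrogenic factors lay above 0 and 2 below, with 3 higher and 1 lower at an unadjusted p under 0.05 and a median of 0.26. Cbfb, the subunit that RUNX proteins need to bind DNA firmly, had 16.8, 15.3 and 18.0 CPM in the young and 30.5, 24.2 and 27.4 CPM in the aged libraries. The groups were apart, aged replicate 2 included, with a log2 fold change of 0.71, an SE of 0.16 and an adjusted p of 0.372. Runx1, the blood-forming member of the family, had 2.31, 2.39 and 2.71 CPM in the young and 7.25, 4.59 and 4.49 CPM in the aged libraries, a log2 fold change of 1.14 (adjusted p = 0.377). Zfp521, a zinc finger protein that restrains Runx2, had 3.41, 2.85 and 4.11 CPM in the young and 12.5, 4.61 and 12.3 CPM in the aged libraries, a log2 fold change of 1.5 (adjusted p = 0.377). All 3 were higher in each aged library than in any young one, which their choice by the smallest p favors. Of the 10 other factors 3 had groups apart in this direction, beside 7.74% of all genes. Zfp521 was called by edgeR once aged replicate 2 was left out. The 9 other bone and cartilage matrix genes had a median of 0.17, with 5 above 0 and 4 below. Ibsp, bone sialoprotein, was low in every library, at 0.578, 0.115 and 0.233 CPM in young and 1.62, 1.19 and 1.06 CPM in aged aorta. Its log2 fold change was 2.03 (adjusted p = 0.402), from at most 54 counts. Comp had a log2 fold change of 1.00 and Omd one of 0.42, with overlapping groups. Sparc, the list's most abundant gene, had 3576 ± 1190 and 3033 ± 913 CPM (SD, n = 3 each).

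On the side of Bmp2 and Bmp4, the target genes had a median below 0, while that of the antagonists was close to the 0.020 of all tested genes. Of 9 other BMP target genes 8 lay below 0 and 1 above, with a median log2 fold change of -0.48 and 2 at an unadjusted p under 0.05. Those were Id4, at 57 ± 14.5 CPM in young and 30.5 ± 3.41 CPM in aged aorta, and Id2, at 187 ± 27.2 and 117 ± 15.9 CPM (SD, n = 3 each). Both encode inhibitors of basic helix-loop-helix factors. Their log2 fold changes were -0.90 (adjusted p = 0.372) and -0.67 (adjusted p = 0.377), and neither had overlapping groups. Bambi, a pseudoreceptor for BMPs, had a log2 fold change of -0.69 and Id3, the most abundant target, one of -0.28, with overlapping groups. The 13 other antagonists divided into 7 above and 6 below 0, with a median of 0.059. Nbl1, which binds BMPs, had 73.6 ± 5.69 CPM in young and 157 ± 42.8 CPM in aged aorta (SD, n = 3 each), which is 1.09 on the log2 scale (adjusted p = 0.360). Chrd, the chordin gene, stood at 0.71 on that scale (adjusted p = 0.382), while Fstl1, the most abundant on the list, stood at -0.52 (adjusted p = 0.403). These 3 antagonists had groups that did not overlap. Of the 13 others 3 had groups apart with aged higher and 1 with aged lower, beside 7.74% and 8.78% of all genes. The 4 other ligands held 1 gene above and 3 below 0, none with an unadjusted p under 0.05. Bmp1, in fact a protease that trims procollagen, was the most abundant of them at 214 ± 72.0 and 180.3 ± 41.6 CPM, and Bmp3 and Gdf6 had log2 fold changes of 0.47 and -0.46. The receptors and Smads divided evenly, 6 above and 6 below 0. Acvrl1, a receptor of endothelial cells, had 51.1 ± 10.9 and 85.7 ± 23.5 CPM (mean ± SD of 3 libraries each), or a log2 fold change of 0.75 (adjusted p = 0.415). Its partner Eng had one of 0.50 with overlapping groups. Both were highest in aged replicate 3, the library rich in endothelial markers, at 109.6 and 116 CPM, and without it their log2 fold changes were 0.53 (adjusted p = 0.693) and 0.32 (adjusted p = 0.751). Smad9 had one of -0.76 (adjusted p = 0.448) and Bmpr1a, the most abundant, one of -0.20.

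Around Enpp1 and Alpl, the 11 other genes of pyrophosphate and phosphate handling divided into 6 above and 5 below 0, with a median of 0.0042 and with 1 higher and 2 lower at an unadjusted p under 0.05. Entpd2, which splits extracellular ATP and so competes with Enpp1 for its substrate, had 29.0, 25.7 and 27.4 CPM in the young and 108, 29.7 and 92.0 CPM in the aged libraries. It was close to the young values in aged replicate 2 and far above them in the other aged libraries, with a log2 fold change of 1.48 (adjusted p = 0.382). Slc20a2, a phosphate transporter, had 65.4 ± 5.99 CPM in young and 45.7 ± 5.39 CPM in aged aorta (SD, n = 3 each), which is -0.52 on the log2 scale (adjusted p = 0.390). Abcc6, whose loss causes the calcifying disease pseudoxanthoma elasticum, had 20, 24 and 37 counts in the young and 7, 4 and 0 counts in the aged libraries. It did not exceed 1.08 CPM, and its adjusted p was 0.429. Entpd1, the most abundant on the list, had a log2 fold change of -0.21 with overlapping groups.

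Around Mgp and Gas6, the 5 other genes of the Gla and vitamin K list divided into 2 above and 3 below 0, none with an unadjusted p under 0.05. Vkorc1l1, a vitamin K reductase, had 34.4 ± 4.55 CPM in young and 23.9 ± 8.08 CPM in aged aorta (SD, n = 3 each), and Pros1, the gene of protein S, had a log2 fold change of 0.29. Nqo1 had one of -0.070. Of the receptors of Gas6, Axl was the most abundant at 469 ± 60.1 and 516 ± 58.5 CPM (mean ± SD of 3 libraries each), or a log2 fold change of 0.14, and Mertk had one of 0.021. Tyro3 had 20.6 ± 5.66 and 12 ± 1.77 CPM, with groups that did not overlap and a log2 fold change of -0.78 (adjusted p = 0.390).

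Around Tnfrsf11b, the ligand it traps was hardly present. Tnfsf11 had 0 counts in 5 libraries and 3 counts in aged replicate 3. The receptor Tnfrsf11a had 42.1 ± 5.63 CPM in young and 36.2 ± 8.62 CPM in aged aorta (SD, n = 3 each), which is -0.22 on the log2 scale. Lgr4, another receptor for the ligand, had one of -0.27 and Nfatc1 one of 0.23, and none of the 5 other tested genes had an unadjusted p under 0.05. Around Spp1, 10 other tested genes, namely its integrin and CD44 partners and its relative Ibsp, had a median of -0.14, with 4 above 0 and 6 below. Itga9 had 658 ± 94.9 and 433 ± 30.4 CPM (mean ± SD of 3 libraries each), or a log2 fold change of -0.61 (adjusted p = 0.377). Itgb3 stood at -0.60 on the log2 scale (adjusted p = 0.400), with the groups of both apart. Itga8, the most abundant integrin of the list at 2535 ± 180 and 2090 ± 342 CPM (SD, n = 3 each), had overlapping groups. On the list of circulating inhibitors and hormone receptors, Fetub, a liver gene of the fetuin family, had 1.16 ± 0.502 and 4.71 ± 2.76 CPM (mean ± SD of 3 libraries each), or a log2 fold change of 2.01 (adjusted p = 0.377). Its groups did not overlap. Ahsg, the gene of fetuin-A, had a log2 fold change of 1.15 and Vdr, the vitamin D receptor, one of 1.83, both with overlapping groups. Pth1r had one of -0.043.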

How the data were processed

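Total RNA of mouse aorta was made into libraries with the SMARTER mRNA-Seq kit and sequenced single-end for 50 cycles. The authors deposited a table of raw counts per gene and FPKM values per gene for the same 6 libraries. The submitters' processing notes name mm10. Aligner, counter and annotation are not given in the sources used here. Within genes FPKM followed the counts (SD of 0.0113 on the log2 scale).

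The 10 regulators, the pathway lists and the marker lists were chosen with earlier results of these data known. Genes were named by rule: all regulators, in each pathway list the genes past the adjusted threshold or else the 3 with the smallest p and the most abundant one, and in each marker list the most abundant gene. Sp7, Bglap, Bglap2, Dmp1, Tnfsf11, Matn1, Calcr, Ucp1 and Xist were named after their values were seen.

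Counts were filtered with filterByExpr (minimum count 10, minimum total 15), scaled by TMM and tested with edgeR 4.0.16 in R 4.3.3 by the quasi-likelihood test without covariates. P-values were adjusted by Benjamini-Hochberg over 16612 genes, with a threshold of 0.05. Alternatives were DESeq2 1.42.0, limma 3.58.1 on log2(FPKM + 1) and log2(FPKM + 0.1), RLE size factors, other filters, a robust fit, removal of mitochondrial genes, a replicate block and leaving out each library. The code was tested on simulated data. Separate animals are implied but not stated for each library, so that p-values measure the spread between these libraries. Intervals cover that spread only. With 31049632 counts in the smallest library, low genes such as Runx2 rest on few counts. Positions come from the GENCODE annotation of GRCm38.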

Additional observations from a re-analysis of the deposited data

How the results depend on the processing

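No regulator was called at an adjusted p of 0.05 under any of the 16 alternatives. Over all genes 0 were called, but DESeq2 called 311, and leaving out single libraries gave 0 to 110, with 110 when aged replicate 2 was left out. Of the pathway genes DESeq2 called 5 (Entpd2, Fetub, Id4, Nbl1 and Zfp521), and leaving out single libraries gave 0 to 3 (Entpd2, Nbl1 and Zfp521 without aged replicate 2). The causes were not tested.

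Estimates near 0 changed sign. Alpl was -0.050 and -0.058 on log2(FPKM + 1) and log2(FPKM + 0.1), Gas6 -0.073 and -0.074, Tnfrsf11b -0.22 and -0.29, and Bmp4 -0.012 on the latter, where the median of all genes was -0.12 and -0.19. With the replicate block Tnfrsf11b was -0.074. Leaving out single libraries, the ranges were -0.31 to 0.085 for Enpp1, -0.51 to 0.56 for Tnfrsf11b, -0.089 to 0.72 for Sox9 and -0.43 to 0.22 for Bmp2.

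Same-numbered libraries correlated at 0.077, 0.142 and 0.142 in their deviations, above the range of -0.169 to 0.0726 of the differently numbered ones. The labels do not state pairs, and the main fit used none. These correlations do not settle whether the numbers are pairs. The replicate block called 0 genes, left 1782 at an unadjusted p under 0.05 and gave Runx2 a log2 fold change of 1.53. Runx2 and Spp1 were among those genes (edgeR unadjusted p = 0.0337 and 0.0417), beside 10.7% of all genes. With young replicate 1 and aged replicate 2 both left out, a setting added after seeing the data, 0 genes were called and 6 regulators (Alpl, Bmp4, Gas6, Mgp, Runx2 and Spp1) had an unadjusted p under 0.05, beside 16.5% of all genes.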

Other observations

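Sost, the gene of sclerostin and best known from osteocytes, was abundant in these aortas among the BMP and Wnt antagonists, at 910 ± 82.6 CPM in young and 711 ± 166 CPM in aged libraries (SD, n = 3 each). It was noticed after its values were seen. Its log2 fold change was -0.36 with an SE of 0.21, and the edgeR adjusted p was 0.580. Itgav, an integrin subunit that binds osteopontin, had values that did not follow age, at 11.7, 83.6 and 92.9 CPM in the young and 103, 6.71 and 15.4 CPM in the aged libraries. The libraries formed a high set and a low set with both ages in each. The cause was not tested.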
